A study of Mus musculus with 4 samples.

Results

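The metallothioneins described here are 3 mouse genes, Mt1, Mt2 and Mt3, taken by symbol from the 32285 genes counted in each of 4 single-nucleus RNA libraries of mouse brain. Each symbol occurred in the feature list, so no member was missing. The rule went by symbol and used no measured value, but it was set with earlier results of these data known.

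Metallothioneins are small cysteine-rich proteins that bind zinc and copper ions and buffer their free concentration in the cell. Mt1 and Mt2 are found in most tissues and are induced by metals through the zinc-sensing transcription factor MTF1, and also by glucocorticoids and oxidative stress. Mt3 is the form best known from brain, where it is described in neurons and astrocytes, and it is not known as a strongly metal-induced gene.

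All animals were wild-type C57BL/6 mice aged 10 weeks, and the tissue was brain with the cerebellum taken off, frozen on dry ice for 10 min. The 2 harvests were removal after death by cervical dislocation (post-mortem) and craniotomy under deep isoflurane anaesthesia (anaesthetised). Nuclei from at most 50 mg of tissue were either left unfixed or brought to 80% methanol at -20 °C for 30 min and taken through the buffers of a fixation kit, so that methanol and those buffers cannot be told apart. There was 1 library per combination and no replicate. A ratio below compares 2 libraries, not 2 conditions, intervals cover counting error only (95%), and no test between groups was run. The series text gives a distinct sample per combination but not whether the unfixed and methanol samples of a harvest shared a brain. Harvest cannot be told apart from the animal or from the mix of nuclei captured.

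After filtering, the post-mortem unfixed library kept 12483 nuclei, the post-mortem methanol 9826, the anaesthetised unfixed 15134 and the anaesthetised methanol library 6833. Values below follow this order. Total unique molecular identifiers (UMIs, each standing for a captured RNA molecule) ranged from 51528633 to 67205676, and median UMIs per nucleus from 3024.5 to 7829, with both methanol libraries above both unfixed ones. Between 61 and 210 barcodes were shared by any pair of libraries. A nucleus was gated to a class when it held at least 3 of that class's 10 marker genes and at least 2 times as many as of any other class. No metallothionein was among the markers. The gate named 48.4% to 58.8% of nuclei per library, and 7 classes held at least 100 nuclei in every library. Astrocyte-gated nuclei numbered 362, 357, 598 and 233, with a median of 6 to 8 astrocyte markers and a median of 0 markers of every other class.

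The members lie in tandem on the plus strand of chromosome 8 (mm10), in the order Mt4, Mt3, Mt2, Mt1. By the GENCODE annotation Mt3 spans 94152607 to 94154146, Mt2 94172664 to 94173568 and Mt1 94179082 to 94180327, each with 3 exons. The spacing is 18517 bases between Mt3 and Mt2 and 5513 bases between Mt2 and Mt1. Mt4, the fourth gene of the cluster and known from squamous epithelia, had 0, 1, 0 and 1 UMIs. The antisense gene Gm45774 overlaps 749 of the 905 bases of Mt2, and the strand setting of the counting is not given in the sources used here, so Mt2 values are uncertain in that respect. Gm45774 itself held 2, 1, 1 and 1 UMIs.

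The sequences upstream of the 3 genes are shown because all 3 members had a higher level in both methanol libraries in astrocyte-gated nuclei while differing in known metal induction. They are the 250 bases before each RefSeq start site (GRCm38.p6, plus strand), at chr8:94178839-94179088 for Mt1, chr8:94172368-94172617 for Mt2 and chr8:94152357-94152606 for Mt3. Capitals mark matches on either strand to the core of the metal response element bound by MTF1, searched as TGCACNC and TGCGCNC.

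Mt1: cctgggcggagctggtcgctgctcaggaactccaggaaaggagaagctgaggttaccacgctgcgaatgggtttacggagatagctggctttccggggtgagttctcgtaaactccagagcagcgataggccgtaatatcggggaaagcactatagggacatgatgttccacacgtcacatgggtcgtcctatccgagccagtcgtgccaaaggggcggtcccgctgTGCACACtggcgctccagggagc

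Mt2: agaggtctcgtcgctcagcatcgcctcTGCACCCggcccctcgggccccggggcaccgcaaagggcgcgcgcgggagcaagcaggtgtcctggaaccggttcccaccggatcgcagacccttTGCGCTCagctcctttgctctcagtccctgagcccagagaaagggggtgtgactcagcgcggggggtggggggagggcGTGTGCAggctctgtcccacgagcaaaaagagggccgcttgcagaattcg

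Mt3: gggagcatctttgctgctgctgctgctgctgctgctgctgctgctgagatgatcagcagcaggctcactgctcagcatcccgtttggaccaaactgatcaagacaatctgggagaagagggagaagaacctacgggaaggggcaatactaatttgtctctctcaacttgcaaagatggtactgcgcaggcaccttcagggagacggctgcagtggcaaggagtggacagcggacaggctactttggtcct

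Mt1 held 1 match, TGCACAC, at bases 23 to 17 before the start. Mt2 held 3 matches in its window. In the Mt3 window these letters do not occur. Of 32851 RefSeq windows of the same length, 21.4% held at least 1 match and 1.26% held at least 3, so a single match in such a window is common. The RefSeq starts used, 94179089 for Mt1 and 94172618 for Mt2, differ from the GENCODE starts given above. Bases outside these windows were not searched, so the numbers describe the windows and not the whole promoters. Whether these starts are the ones used in these nuclei was not tested. The members therefore cannot be ranked by their number of matches. A match is a description of the letters and not evidence of binding.

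Of the 7 classes with enough nuclei, the astrocyte-gated one held the highest level of all 3 members in every library. In them Mt1 stood at 218 CPM (UMIs per 1000000 UMIs of the class; interval 186 to 253), 438 (396 to 483), 149 (125 to 176) and 504 (453 to 561). Mt2 stood at 69.1 CPM (51.9 to 90.2), 139 (116 to 165), 51.9 (38.2 to 68.8) and 145 (118 to 177). Mt3 stood at 188 CPM (159 to 221), 505 (459 to 553), 177 (151 to 206) and 430 (382 to 482). In each member both methanol libraries lay above both unfixed ones, with no overlap of intervals. A 3' kit counts molecules and not length, so CPM values are not scaled to the length of a gene.

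For Mt1, the class next to astrocytes was oligodendrocytes, the myelin-forming cells, at 32.1 to 61.2 CPM over the 4 libraries. Microglia followed at 20.1 to 27.6 CPM, then oligodendrocyte precursors at 14.3 to 19.9, medium spiny neurons at 7.50 to 20.5, interneurons at 5.28 to 10.8 and excitatory neurons at 4.66 to 8.81. The ranges of the first 3 neighbouring pairs in this order did not overlap, and those of the later neighbours did. Microglia and precursors were apart only by 20.1 against 19.9 CPM, on 7 to 13 UMIs per library. Their counting intervals overlapped in each library, so the order of these classes cannot be read. Mean Mt1 CPM in astrocyte-gated nuclei was 7.29 times that in oligodendrocytes.

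Mt2 was the most unevenly spread member. Outside astrocytes its mean over the 4 libraries ranged from 0.961 CPM in interneurons to 3.78 in oligodendrocyte precursors, and the ranges of all neighbours in that order overlapped. The mean in astrocyte-gated nuclei was 26.8 times that of the next class. These other levels rest on few molecules, for example 0, 0, 2 and 2 UMIs in the microglia of the 4 libraries in rising order.

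Mt3 was the most widely spread. Behind astrocytes came oligodendrocyte precursors with a mean of 52.5 CPM, interneurons with 42.8, microglia with 42.7, excitatory neurons with 34.8, oligodendrocytes with 31.5 and medium spiny neurons with 29.6. The library ranges of all these neighbours overlapped, so no order among them can be read. The astrocyte mean was 6.19 times that of the next class. Against medium spiny neurons, the astrocyte level was 9.08 to 11.6 times higher for Mt3, 19.4 to 29.3 times for Mt1 and 40.8 to 143 times for Mt2.

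**Figure D1:**
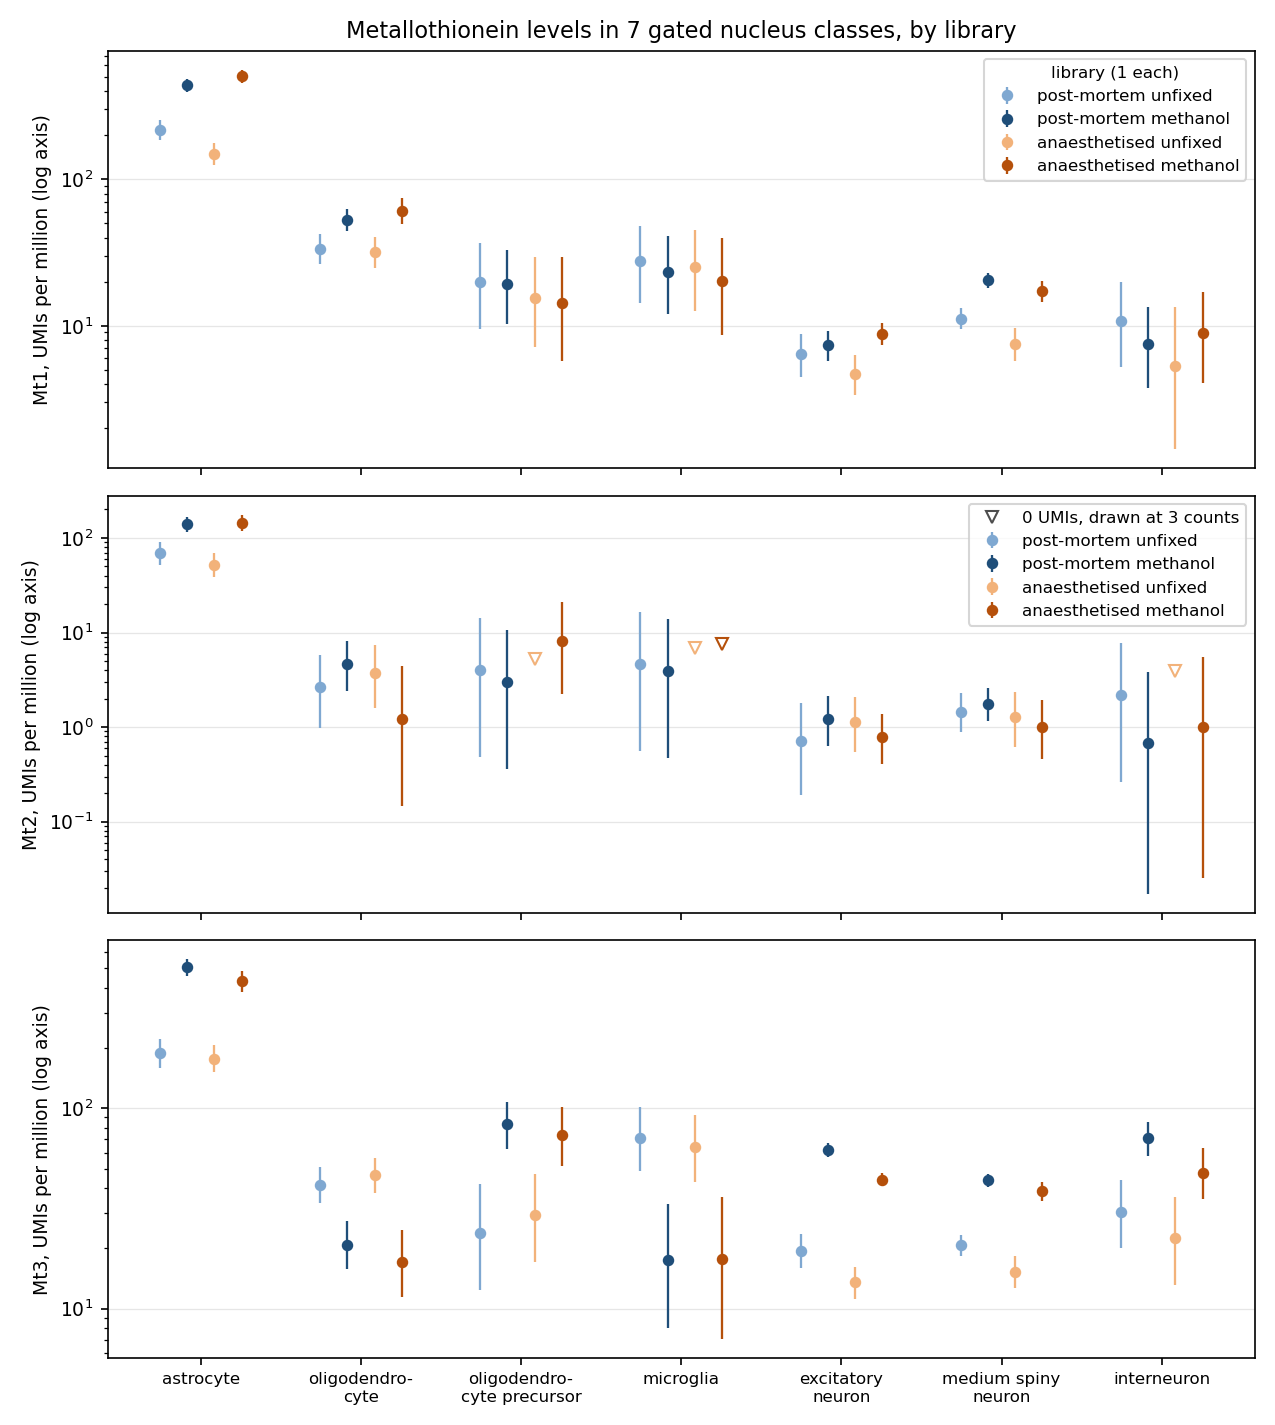
CPM (log axis) of Mt1, Mt2 and Mt3 in 7 gated classes, with 1 point per library, exact Poisson 95% intervals, and triangles at the 3-count level where a library had 0 UMIs. All 3 genes are highest in astrocyte-gated nuclei, and the Mt3 points of oligodendrocytes and microglia are lower in the methanol libraries while those of the other classes are higher.

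Astrocyte-gated nuclei thus carried a far larger part of the metallothionein molecules than of the library. They made up 2.90% to 3.95% of nuclei and 1.14% to 1.78% of all UMIs. They held 21.3%, 26.1%, 23.3% and 30.0% of the Mt1 UMIs and 37.5%, 43.3%, 38.4% and 53.2% of the Mt2 UMIs. Of the Mt3 UMIs they held 9.56%, 10.3%, 12.9% and 9.59%. For Mt1 and Mt2 the share was higher in the methanol library of each harvest, and for Mt3 it was higher in the post-mortem pair and lower in the anaesthetised pair. Nuclei that no gate named held 31.7% to 38.4% of Mt2 UMIs and 53.3% to 56.4% of Mt3 UMIs, so the gated classes do not account for all molecules.

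**Figure D2:**
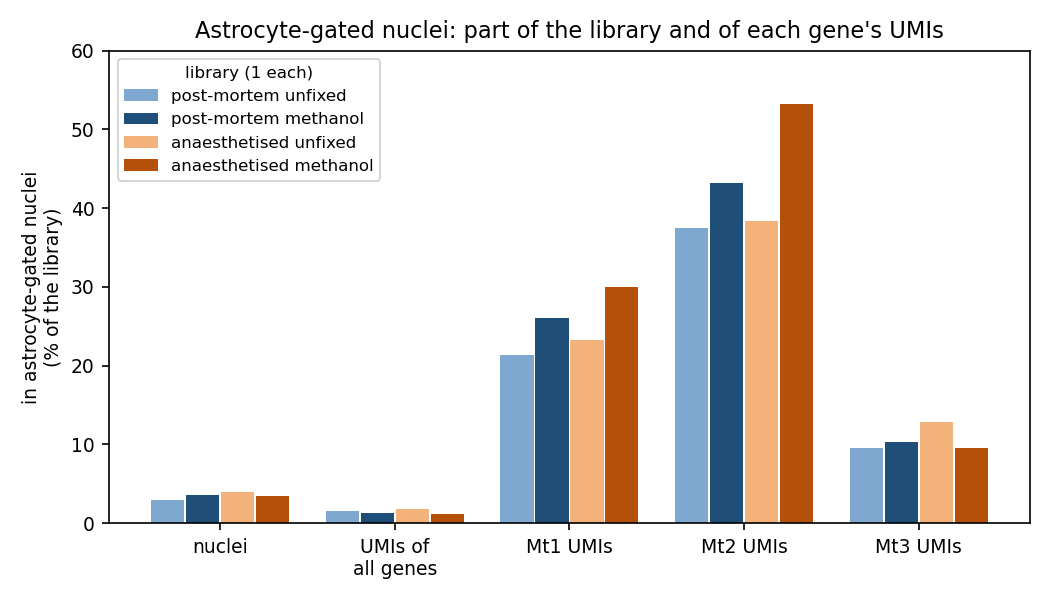
Part of each library found in astrocyte-gated nuclei, as a percent of nuclei, of UMIs of all genes and of the UMIs of each metallothionein, with 1 bar per library. The bars for Mt2 reach 37.5% to 53.2% although these nuclei hold under 2% of all UMIs.

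The mixture of members differed between classes. In astrocyte-gated nuclei Mt1 made up 39.4% to 46.7% of the metallothionein UMIs, Mt2 12.8% to 14.6% and Mt3 39.6% to 46.9%. The share of Mt2 there varied less between libraries than its interval in any of them (11.1% to 18.6% in the post-mortem unfixed library). In excitatory neurons, the glutamatergic cells of cortex and related areas, Mt3 made up 73.3%, 87.9%, 70.0% and 82.1%. In oligodendrocytes the Mt3 share was 53.4% and 56.5% in the unfixed libraries against 26.7% and 21.5% in the methanol libraries, and Mt1 took most of the remainder.

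Detection per nucleus was compared at equal depth, with each nucleus thinned to 1000 UMIs and shallower nuclei left out (42, 17, 171 and 9 of the astrocyte-gated ones). An Mt1 UMI was then found in 18.1% of astrocyte-gated nuclei (14.1% to 22.8%), 37.9% (32.8% to 43.3%), 17.1% (13.6% to 21.0%) and 41.1% (34.6% to 47.8%). For Mt3 the shares were 16.2%, 41.8%, 17.6% and 42.9%, and for Mt2 6.88%, 13.8%, 4.45% and 14.3%. At least 1 member was found in 35.6%, 64.7%, 34.0% and 66.1%. The methanol libraries were again above the unfixed ones in every case, and the intervals of the 2 libraries of a fixation state overlapped. Without thinning, at least 1 member was found in 54.1%, 83.5%, 40.6% and 82.0%, at median depths of 1915.5, 2071, 1279.5 and 2165 UMIs.

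Microglia and medium spiny neurons, taken as reference classes for Mt1 and Mt2, give the level against which the astrocyte shares are set. How much of it is free RNA was not tested. In thinned microglia an Mt1 UMI was found in 0.990% to 3.95% of nuclei and an Mt2 UMI in 0% to 0.578%. In thinned medium spiny neurons the Mt1 share was 0.894% to 2.08% and the Mt2 share 0% to 0.152%. Unthinned median depths were 776 to 1061 UMIs in microglia and 3461 to 7594.5 in medium spiny neurons. The astrocyte shares of both genes lay above these in every library. A count of 0 in the anaesthetised methanol medium spiny nuclei still allows a share of up to 0.274% for Mt2 by the limit of 3 counts, and its exact interval reaches 0.336%.

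**Figure D3:**
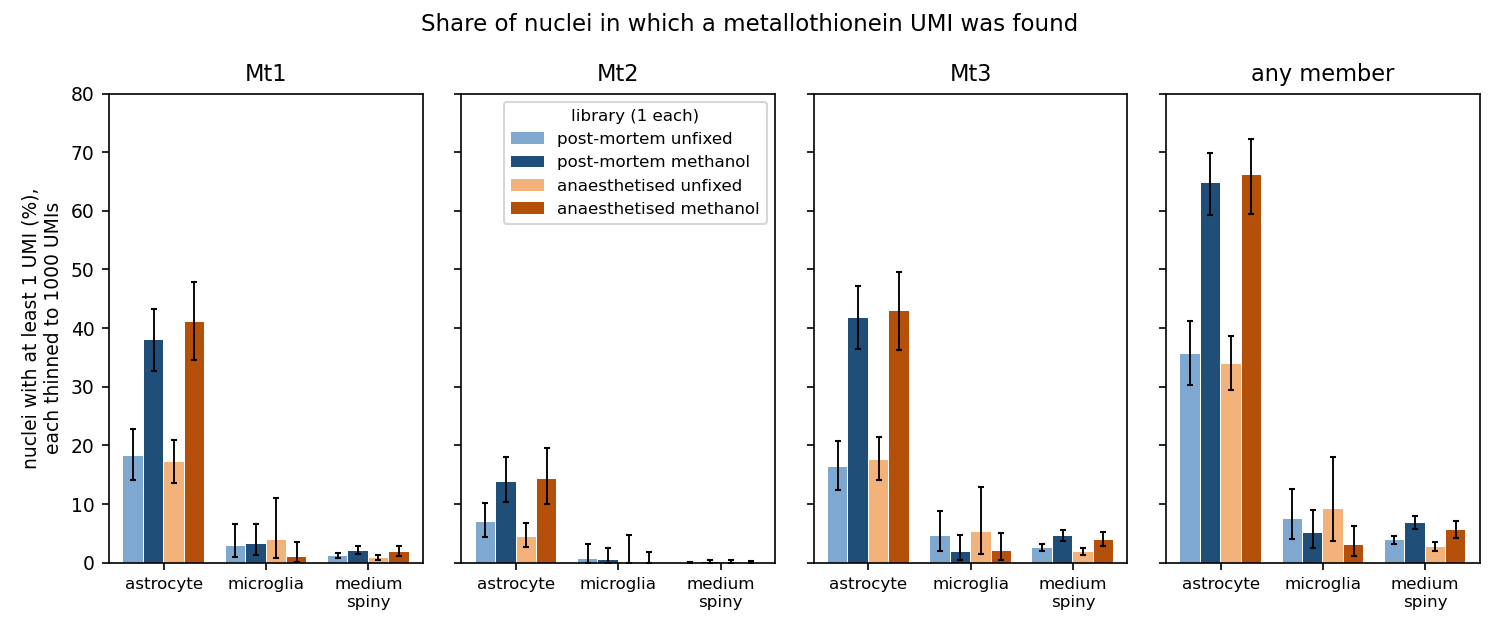
Percent of nuclei with at least 1 UMI of each metallothionein after thinning every nucleus to 1000 UMIs, for 3 gated classes and 4 libraries, with Clopper-Pearson 95% intervals. Astrocyte bars for any member stand at 35.6% and 34.0% in the unfixed libraries and at 64.7% and 66.1% in the methanol libraries, while microglia and medium spiny neurons stay under 10%.

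Molecules were spread over many astrocyte-gated nuclei. After thinning, the highest Mt1 number in a single astrocyte-gated nucleus was 3, 3, 2 and 5, and the 10 nuclei with most Mt1 held 19 of 67, 27 of 180, 15 of 78 and 35 of 143 UMIs. Nuclei with both Mt1 and Mt2 were 1.76, 1.12, 1.85 and 1.45 times as many as the product of the single shares gives, on 7, 20, 6 and 19 nuclei. For Mt1 with Mt3 the same figure was 0.743, 1.19, 1.17 and 1.19, and for Mt2 with Mt3 it was 1.40, 1.07, 0.599 and 1.31. The first pair was above 1 in all 4 libraries, and the other pairs fell on both sides. With nuclei thinned to 2000 UMIs this difference between pairs was gone: the figure was 1.24, 1.34, 2.35 and 1.42 for Mt1 with Mt2, 1.04, 1.13, 1.68 and 1.25 for Mt1 with Mt3 and 1.22, 1.21, 1.89 and 1.27 for Mt2 with Mt3. Without thinning all 3 pairs were likewise above 1 in every library. These are descriptions of nuclei within a library.

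Methanol over unfixed was compared within each harvest. A gene was called when both pairs showed a difference of 2-fold or more in the same direction, and measured at a mean of at least 10 CPM, in a class also with at least 50 UMIs. Over all kept nuclei Mt1 was at 15.5, 22.5, 11.4 and 19.1 CPM, and its log2 ratio was 0.54 (0.41 to 0.67) in the post-mortem and 0.75 (0.60 to 0.89) in the anaesthetised pair. Mt2 was at 2.79, 4.30, 2.40 and 3.10 CPM, below the level at which genes were compared, with log2 ratios of 0.62 (0.33 to 0.92) and 0.37 (0.04 to 0.71). Mt3 was at 29.8, 65.9, 24.5 and 50.9 CPM. The methanol libraries of all 3 were the higher ones. Over all deposited barcodes, with no filter, the post-mortem pair was nearly flat for Mt1, at 22.3 and 23.0 CPM (log2 0.04), and for Mt2, at 3.89 and 4.19 CPM (log2 0.11), while the anaesthetised pair stood at log2 0.78 and 0.62. Mt3 alone of the 3 was called, at 2.21-fold and 2.08-fold, in a setting where 0.306% of 9789 genes were called higher. By the smaller of its 2 ratios, 21 genes were ahead of it. The call was lost over all deposited barcodes (log2 0.90 and 1.09), with nuclei thinned to 1000 UMIs (0.97 and 1.03) and with gated classes weighted equally (1.02 and 0.86).

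In astrocyte-gated nuclei 2 of 3 members were called higher, beside 1.63% of 8909 genes. The log2 ratios were 1.01 (0.75 to 1.28) and 1.76 (1.47 to 2.05) for Mt1, and 1.42 (1.15 to 1.70) and 1.28 (1.00 to 1.56) for Mt3. Mt2, at 1.00 (0.54 to 1.49) and 1.48 (0.97 to 2.01), fell just short of 2-fold in the post-mortem pair before rounding. Mt1 in that pair was just inside at 2.01-fold, and its call was lost with at least 1000 UMIs per nucleus (log2 0.98) and with a gate of at least 4 markers (0.95). Without nuclei that held any neuronal marker the post-mortem ratio of Mt2 was 0.53. The astrocyte ratios of all 3 members exceeded those of all nuclei in both pairs. The intervals overlapped for Mt3 in both pairs and for Mt2 in the post-mortem pair. CPM is a share of the captured RNA, so a gain of the member cannot be told apart from a loss of other RNA.

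The gate itself moved with fixation: the astrocyte-gated nuclei held a median of 7 markers in the post-mortem unfixed library and 8 after methanol, and 6 and 8 in the anaesthetised pair. Among nuclei with 6 to 7 astrocyte markers Mt1 was at 254, 479, 178 and 607 CPM and Mt3 at 199, 552, 175 and 452 CPM. Among nuclei with 8 to 10 markers Mt1 was at 285, 532, 218 and 586 CPM and Mt3 at 249, 609, 193 and 498. In both bands the methanol library was the higher in each pair. In the 3 to 5 marker band the post-mortem pair went the other way for all 3 members. Mt1 was at 88.9 CPM on 19 UMIs against 47.3 CPM on 7 UMIs in 29 nuclei, Mt2 at 37.4 CPM on 8 UMIs against 0 UMIs, and Mt3 at 108 CPM on 23 UMIs against 67.5 CPM on 10. The anaesthetised pair of that band was close for Mt1, at 97.5 and 119 CPM, and for Mt3, at 174 and 183 CPM, and higher after methanol for Mt2, at 28.2 and 87.5 CPM on 11 UMIs each. Summed markers of oligodendrocytes in astrocyte-gated nuclei went from 311 to 198 CPM and from 287 to 161 CPM. Those of excitatory neurons stood at 184, 143, 476 and 452 CPM. Their part in the result was not tested.

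Mt3 was called higher in each of the 3 neuronal classes. In excitatory neurons Mt3 was at 19.5 CPM (16.0 to 23.5), 62.1 (57.2 to 67.2), 13.5 (11.2 to 16.2) and 44.1 (40.8 to 47.5). Both methanol libraries were far above both unfixed ones. The log2 ratios were 1.67 (1.38 to 1.98) and 1.70 (1.42 to 2.00), where 0.851% of 9162 genes were called higher, and by the smaller of the 2 ratios 0 genes were ahead of Mt3. In medium spiny neurons, the projection cells of the striatum, Mt3 was at 20.7, 43.7, 15.2 and 38.6 CPM, with log2 ratios of 1.08 (0.87 to 1.29) and 1.34 (1.04 to 1.65) beside 0.93% of 9028 genes called. In interneurons it was at 30.3, 70.8, 22.4 and 47.8 CPM, with log2 ratios of 1.20 (0.61 to 1.88) and 1.06 (0.27 to 1.98) beside 0.59% of 9149 genes. The interneuron intervals reach well below 2-fold. Oligodendrocyte precursors were alike, with Mt3 at 23.9, 83.1, 29.5 and 73.5 CPM on 12, 56, 17 and 36 UMIs. The log2 ratios there were 1.75 (0.88 to 2.83) and 1.30 (0.45 to 2.24), beside 0.959% of 7301 genes called. Summed astrocyte markers in the precursor gate stood at 2112, 2857, 2368 and 3961 CPM, also higher after methanol in both pairs. Their part in the Mt3 values of precursors was not tested.

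Zinc transporter 3, encoded by Slc30a3, loads zinc into synaptic vesicles of a subset of excitatory neurons. Excitatory nuclei with a Slc30a3 UMI (147, 306, 186 and 376 nuclei) had Mt3 at 21.5, 54.1, 12.4 and 47.0 CPM. Those without (652, 601, 1334 and 718 nuclei) had 19.0, 66.4, 13.7 and 42.3 CPM. Neither group was the higher in all libraries, and the methanol libraries were higher in both. Nuclei with a Slc30a3 UMI were the deeper ones in each library.

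Oligodendrocytes and microglia went the other way for Mt3. In oligodendrocytes it was at 41.6 CPM (33.7 to 51.0), 20.9 (15.7 to 27.3), 46.5 (37.8 to 56.6) and 17.1 (11.4 to 24.8). Both methanol libraries lay below both unfixed ones. The log2 ratios were -0.99 (-1.50 to -0.50) and -1.42 (-2.10 to -0.82). Mt3 was not called, since the post-mortem ratio was just short of 2-fold, and 5.21% of 9464 genes were called lower in this class. In microglia, the resident macrophages, Mt3 was at 71.4, 17.5, 64.3 and 17.6 CPM on 31, 9, 28 and 7 UMIs. It was called lower with log2 ratios of -1.97 (-3.28 to -0.92) and -1.79 (-3.31 to -0.64), as were 4.11% of 6642 genes.

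Markers of other classes were also lower in these gates after methanol. In oligodendrocytes the 10 excitatory markers summed to 167 CPM and 58.5 CPM in the post-mortem pair and to 426 and 190 CPM in the anaesthetised pair, and 10 of 10 were lower in both pairs. The medium spiny markers went from 431 to 215 and from 457 to 166 CPM, with 9 of 10 lower. The astrocyte markers changed little in sum, from 411 to 396 and from 479 to 406 CPM, with 7 of 10 lower. In microglia the oligodendrocyte markers went from 642 to 291 and from 535 to 131 CPM with 7 of 10 lower, and the medium spiny markers from 361 to 179 and from 452 to 184 CPM with 9 of 10 lower. The excitatory markers in microglia went from 214 to 103 and from 459 to 332 CPM with 8 of 10 lower, and the astrocyte markers from 456 to 406 and from 578 to 475 CPM with 7 of 10 lower. Of the astrocyte markers, Aqp4 was at 0 in microglia in the post-mortem unfixed library and in both methanol libraries. The part of such molecules in the Mt3 values was not tested. Over all genes measured, the median log2 ratios were -0.13 and -0.12 in oligodendrocytes and -0.01 and 0.01 in microglia. The share of all genes lower in both pairs was not computed for these 2 classes. The marker counts therefore cannot be read as a trait of markers of other classes.

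Mt1 did not follow Mt3 in oligodendrocytes. It was at 33.7, 52.7, 32.1 and 61.2 CPM there, higher in both methanol libraries, with log2 ratios of 0.64 (0.23 to 1.07) and 0.93 (0.47 to 1.39). The intervals of the Mt1 and Mt3 ratios in this class do not overlap in either pair. In medium spiny neurons Mt1 was at 11.2, 20.5, 7.50 and 17.2 CPM, with log2 ratios of 0.87 (0.58 to 1.17) and 1.19 (0.76 to 1.66). Excitatory neurons, precursors, interneurons and microglia held Mt1 below the level at which genes were compared, in microglia at 12, 12, 11 and 8 UMIs.

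**Figure D4:**
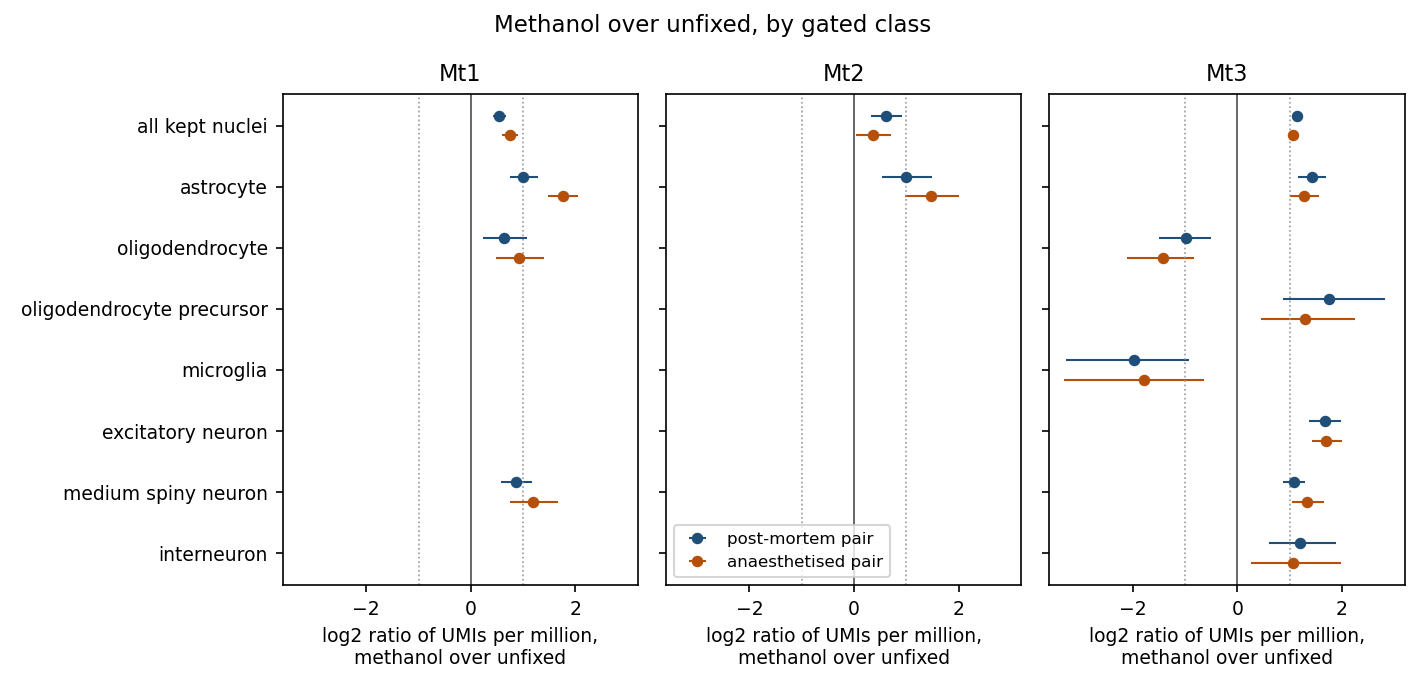
Log2 ratio of CPM, methanol over unfixed, for each metallothionein in all kept nuclei and 7 gated classes, with exact conditional 95% intervals and dotted lines at 2-fold. Classes in which a gene was not measured are left blank, except Mt2 over all nuclei. Mt3 points lie at 1.06 to 1.75 in 5 classes and at -0.99 to -1.97 in oligodendrocytes and microglia.

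The members span 905 to 1540 bases, and short genes as a group moved the same way. Of the 241 other measured genes with an annotated span of at most 3 kb, 205 were higher in both fixation pairs over all nuclei, with median log2 ratios of 0.54 and 0.63. Over all 9789 genes the medians were -0.02 and -0.02, and 40.9% were higher in both. The Mt1 ratios of 0.54 and 0.75 lay close to the short-gene medians, and the Mt3 ratios of 1.14 and 1.06 above them. In astrocyte-gated nuclei 129 of 216 short genes (59.7%) were higher in both pairs, against 27.6% of all 8909 genes. Their medians were 0.36 and 0.44, and all 3 members lay above those. The neighbours Bbs2, Ogfod1 and Nup93, long genes on either side of the cluster, had log2 ratios from -0.10 to 0.16.

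Genes whose mRNA is abundant in astrocytes were also higher in astrocyte-gated nuclei after methanol, and by more than the metallothioneins in several cases. Of 17 listed genes, 15 were higher in both pairs and 7 were called, where 27.6% of all 8909 genes were higher in both, 37.6% lower in both and 1.63% called higher. The medians were 0.93 and 0.90 against -0.09 and -0.04 over all genes. Apoe, the lipid carrier apolipoprotein E, was at 1001, 5852, 912 and 4805 CPM. Clu, the extracellular chaperone clusterin, was at 634, 3110, 551 and 2526 CPM. Both were several-fold higher in each methanol library.

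Genes of metal handling included members on either side, to be read against the same shares of all genes. Of 13 zinc transporters measured in astrocyte-gated nuclei, 6 were higher in both pairs, 2 were lower in both and 0 were called; their median ratios were 0.13 and 0.23. Slc39a12, a zinc importer abundant in astrocytes, was at 375, 492, 299 and 349 CPM. Of 16 copper and iron genes, 5 were higher and 6 lower, with medians of -0.42 and 0.06. Of 7 genes of the oxidative stress response, 3 were higher and 2 lower. Of the list of reactive astrocyte genes 1 of 12 was measured, Gfap, at 7.68, 30.0, 25.9 and 29.3 CPM. Over all nuclei 10 of 16 zinc transporters were higher in both pairs and 4 lower, against 40.9% and 46.9% of all genes, and 0 were called. With genes down to a mean of 3 CPM included, 12 of 19 were higher and 4 lower. Slc30a1 was then called higher, at log2 1.03 and 1.14, as were 60 of 13257 genes. In astrocyte-gated nuclei Slc30a1 held 2, 8, 4 and 6 UMIs.

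**Figure D5:**
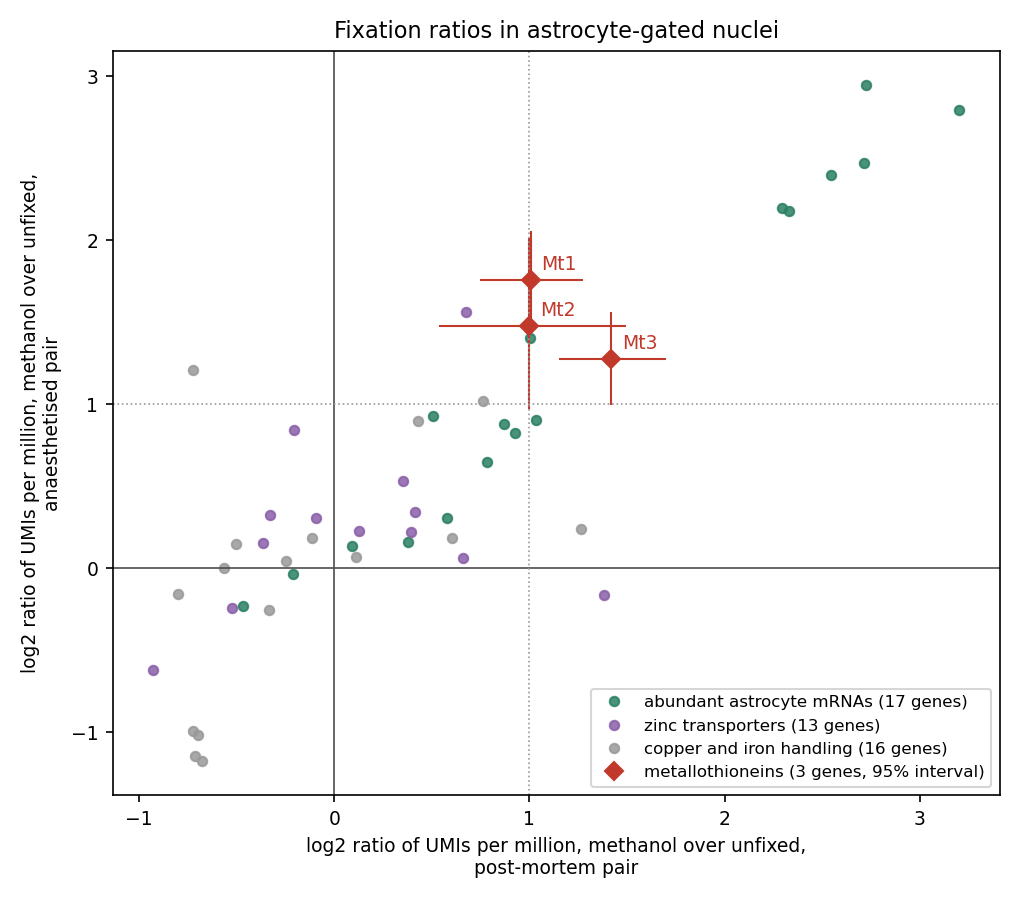
Log2 ratio of CPM, methanol over unfixed, in astrocyte-gated nuclei, with the post-mortem pair across and the anaesthetised pair upward. Each point is a gene of 3 lists or a metallothionein (with 95% intervals). The 3 metallothioneins lie near or above 1 on both axes, above most zinc transporters and copper and iron genes and below the highest of the abundant astrocyte mRNAs.

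The genes with patterns most like each member were sought over 28 sums, 7 classes in 4 libraries, by the Pearson correlation of log2(CPM + 1) among 10702 genes. Sums of a library share its depth and its free RNA, so the coefficients only describe. For Mt1 these were Gstm1 (0.94), Rida (0.93), Tprkb (0.93), Itih3 (0.92) and Ugp2 (0.91). For Mt2 they were Fgfr3 (0.94), Acsbg1 (0.94), Tprkb (0.93), Aldoc (0.92) and Btbd17 (0.92), of which Fgfr3 was an astrocyte gate marker. For Mt3 they were Clu (0.95), Tspan7 (0.92), Atp1b2 (0.90), Tagln3 (0.89) and Id3 (0.86). Mt1 with Mt2 gave 0.87, Mt2 with Mt3 0.81 and Mt1 with Mt3 0.74. Clu shared both directions of Mt3: it was lower after methanol in microglia, from 117 to 35.0 and from 147 to 27.7 CPM, and in oligodendrocytes, from 82.9 to 39.9 and from 74.4 to 34.9 CPM. In excitatory neurons Clu was higher, from 40.9 to 70.6 and from 38.2 to 60.8 CPM.

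Harvest was compared as anaesthetised over post-mortem. The mix of nuclei differed between the harvests. Among Leiden clusters, groups of nuclei alike in expression, a cluster of excitatory neurons held 419, 311, 8 and 5 nuclei. An unnamed cluster high in Abi3bp held 91, 85, 838 and 415. The part of this mix in the harvest ratios, over all nuclei or within excitatory neurons, was not tested. Over all nuclei the log2 ratios in the unfixed and the methanol pair were -0.44 (-0.60 to -0.29) and -0.23 (-0.35 to -0.12) for Mt1, and -0.29 (-0.39 to -0.18) and -0.37 (-0.44 to -0.30) for Mt3. For Mt2 they were -0.22 (-0.58 to 0.14) and -0.47 (-0.74 to -0.20). Over all deposited barcodes the unfixed pair stood further apart, at -0.93 for Mt1, -0.74 for Mt2 and -0.54 for Mt3. No member was called, where 0.337% of 9789 genes were called higher and 0.112% lower. Short genes as a group lay on the same side, with 224 of 241 (92.9%) below 0 in both pairs, against 59.5% of all genes. Their median ratios were -0.37 and -0.27, against -0.10 and -0.09 over all genes.

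In astrocyte-gated nuclei the harvest ratios of Mt1 were -0.54 (-0.88 to -0.21) in the unfixed and 0.20 (-0.01 to 0.42) in the methanol pair, and those of Mt2 were -0.41 (-1.01 to 0.17) and 0.07 (-0.33 to 0.46). The pairs of Mt1 and Mt2 thus lay on different sides of 0. Those of Mt3 were -0.09 (-0.42 to 0.24) and -0.23 (-0.45 to -0.02). No member was called, beside 0.853% of 8909 genes called higher and 0.236% called lower. In excitatory neurons Mt3 was lower in both anaesthetised libraries, with log2 ratios of -0.53 (-0.91 to -0.14) and -0.49 (-0.65 to -0.33). By the lower of the 2 log2 ratios, which for a fall is the larger difference, 89.8% of 9162 genes lay above Mt3. Mt3 was lower in both anaesthetised libraries as well in medium spiny neurons (-0.44 and -0.18) and interneurons (-0.42 and -0.56). In oligodendrocytes, precursors and microglia the 2 pairs lay on different sides of 0.

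Genes responsive to glucocorticoids, hormones that also induce Mt1 and Mt2, were read for harvest as well. Of 13 measured in astrocyte-gated nuclei, 5 were higher in both pairs and 3 were lower in both, which is 38.5% and 23.1% against 33.3% and 25.3% of all genes. The median ratios were 0.30 and -0.11, against 0.01 and 0.07 over all genes. Over all nuclei 5 of 7 were higher in both pairs and 1 lower, with medians of 0.27 and 0.37, where 26.7% of all genes were higher in both and 59.5% lower. With genes down to a mean of 3 CPM included, 6 of 13 were higher and 5 lower, with medians of 0.04 and -0.07. The listed gene called in astrocyte-gated nuclei was Fkbp5, a co-chaperone of the glucocorticoid receptor. It stood there at 11.5, 11.1, 42.1 and 39.6 CPM on 9, 10, 39 and 27 UMIs, with both anaesthetised libraries above both post-mortem ones. Over all nuclei Fkbp5 was at 29.0, 22.6, 36.4 and 29.1 CPM and was not called. In all nuclei Zbtb16, a zinc-finger transcription factor, was called at 48.5, 40.3, 130 and 107 CPM. Over all nuclei Mt1 and Mt2 were lower in both anaesthetised libraries than in their post-mortem partners. The Mt2 interval of the unfixed pair reached above 0 (-0.58 to 0.14). Under alternatives Mt1 reached 0.16 in the methanol pair and Mt2 0.24 in the unfixed pair. In astrocyte-gated nuclei Mt1 and Mt2 were at -0.54 and -0.41 in the unfixed pair and at 0.20 and 0.07 in the methanol pair. A link of these values to glucocorticoids was not tested.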

How the data were processed

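Single-nucleus 3' libraries of 4 combinations of harvest and fixation were analysed. The authors deposited whole-number UMI counts per gene and barcode, raw and not normalised, per the files. Per the submitters' processing notes the genome build is mm10. How reads were aligned and cells called, the annotation release and the strand setting are not given in the sources used here. Of 32285 gene identifiers, 32235 matched the GENCODE annotation of that build.

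Barcodes with under 500 UMIs, under 300 genes or over 5% mitochondrial UMIs were left out, and doublets called by Scrublet (scanpy 1.11.5, expected rate 6%) were removed, 8.95% to 15.2% per library. Counts were summed per library and gated class and scaled to CPM. Before log2 ratios 0.5 counts were added. Ratios carry exact conditional, levels exact Poisson and shares Clopper-Pearson 95% intervals. Reads were collapsed to UMIs, yet the intervals cover counting error alone. The limit for a count of 0 is 3 counts. Ratio and thinning code was tested on simulated data.

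The members, gene lists and rules were chosen with earlier results of these data known. Genes chosen for naming were the members, genes within 100 kb of the cluster, and 5 genes most like each member. From each list they were the 4 most abundant and those called, of which the text gives only a part. Of the 7 abundant astrocyte mRNAs called after methanol in astrocyte-gated nuclei, for example, it gives Apoe and Clu. The splits of nuclei by marker number and by Slc30a3, and the values of Clu in other classes, were chosen after the data had been seen. Slc30a1, called only at the minimum of 3 CPM, and the clusters given for harvest were also picked after seeing the data. Alternatives were a 1000 UMI minimum, doublets kept, median-of-ratios scaling, thinning, equal class weights, stricter gates, Leiden clusters, all deposited barcodes (chosen after seeing the data), and for lists a minimum of 3 CPM.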

Additional observations from a re-analysis of the deposited data

Results flagged for a closer look

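The fixation ratio of Mt3 pointed in opposite directions in different gated classes, in both harvests. As log2 methanol over unfixed, post-mortem pair first, it was 1.42 and 1.28 in astrocytes, 1.67 and 1.70 in excitatory neurons, 1.20 and 1.06 in interneurons, 1.08 and 1.34 in medium spiny neurons and 1.75 and 1.30 in oligodendrocyte precursors. In microglia it was -1.97 and -1.79, and in oligodendrocytes -0.99 and -1.42. With 1 library per group the difference between classes was not tested.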

How the results depend on the processing

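The 6 fixation ratios of the members stayed above 0 under each of 6 alternatives over all nuclei and 7 in astrocyte-gated nuclei. Some log2 ratios left the counting interval of the reported value, and the cause was not tested. Over all deposited barcodes, an alternative chosen after seeing the data, the post-mortem pair was at 0.04 for Mt1, 0.11 for Mt2 and 0.90 for Mt3. Over all nuclei thinned to 1000 UMIs, Mt1 was at 0.87 (post-mortem pair) and 1.44 (anaesthetised pair), Mt2 at 1.53 (post-mortem) and Mt3 at 0.97 (post-mortem), under 2-fold. With gated classes weighted equally Mt1 was at 0.80 and 1.41, Mt2 at 1.44 (anaesthetised) and Mt3 at 1.02 and 0.86, so that the Mt3 call was lost in each of these settings. With at least 1000 UMIs per nucleus Mt3 was at 1.18 (anaesthetised). In astrocyte-gated nuclei thinned to 1000 UMIs, Mt1 was at 1.33 (post-mortem) and Mt2 at 2.05 (anaesthetised). Among those with no neuronal marker, Mt1 was at 1.28, Mt2 at 0.53 and Mt3 at 1.82 in the post-mortem pair. Harvest ratios were less stable: of 6 ratios under the same alternatives, 4 of 36 values over all nuclei and 3 of 42 in astrocytes changed sign, for example Mt1 in the methanol pair, at 0.13 thinned and 0.16 with equal class weights. Ratios were taken within pairs of libraries. As each of the 4 groups holds 1 library, no replicate could be left out. A fit with harvest and fixation as additive terms, which would leave 1 residual degree of freedom, was not run. Mt2 outside astrocytes, and all members in microglia and precursors, are limited by depth.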

Other observations

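Endothelial-gated nuclei were too few to compare between libraries (77 in all), but some held Mt1: 9, 8, 2 and 1 UMIs, or 289 CPM (132 to 549), 253 (109 to 499), 33.6 (4.06 to 121) and 48.1 (1.22 to 268). Both post-mortem libraries lay above both anaesthetised ones, though only the intervals of the 2 unfixed libraries did not overlap. Pooled, Mt1 was at 140 CPM (85.4 to 216), of which the post-mortem libraries gave most UMIs. Pooled Mt2 in them was at 14.0 CPM on 2 UMIs and Mt3 at 48.9 CPM (19.7 to 101) on 7 UMIs. Pooled mural nuclei (54) and fibroblast nuclei (53) held 2 and 4 Mt1 UMIs. Nuclei that no gate named had Mt3 at 30.2, 68.4, 23.2 and 51.5 CPM, close to the level over all nuclei in each library.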
